A study of Mus musculus with 6 samples.

Results

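The genes described here make, carry and sense serotonin: the synthesis enzymes Tph1 and Tph2, the plasma membrane transporter Slc6a4, and the receptors Htr3a, Htr1a, Htr1b, Htr2a and Htr2b. Every probe set annotated to 1 of these symbols alone was taken, which gave 9 of 45037 probe sets and 7 of 18193 named genes. No probe set carried the symbol Htr2a alone, so Htr2a is not analysed here. Expression was measured on 6 arrays, 3 of carotid body and 3 of adrenal medulla, from untreated adult C57/BL6 mice. The carotid body, a small chemoreceptor beside the branching carotid artery, senses arterial oxygen, and the adrenal medulla is the catecholamine-secreting core of the adrenal gland. Each carotid body sample pooled 18 organs and each adrenal medulla sample pooled 10, in both cases from 10 mice, and arrays with the same number came from 1 cohort of animals.

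Serotonin is made from the amino acid tryptophan. Tryptophan hydroxylase carries out the first, rate-limiting step, with Tph1 acting mainly outside the brain and Tph2 in neurons. Aromatic amino acid decarboxylase completes the synthesis. Vesicular transporters load serotonin into granules, Slc6a4 takes released serotonin back into cells, and monoamine oxidases break it down. Most receptors are coupled to G proteins, while Htr3a and Htr3b are subunits of a ligand-gated cation channel of neurons. In the rat, the oxygen-sensing glomus cells of this organ contain serotonin. Mast cells of rodents also make and store serotonin, and platelets take it up from plasma through Slc6a4.

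Of the 7 measured genes, Tph1 was higher in carotid body, Slc6a4 was lower in carotid body, and the other 5 were not called. Calls required an adjusted p under 0.05 (limma, Benjamini-Hochberg over all probe sets) and a difference of at least 2-fold, and each gene was represented by its brightest probe set. Differences are carotid body minus adrenal medulla on the log2 scale. Over all 18193 genes, 5.91% were called higher and 6.08% lower in carotid body, 12% in all. The median difference was -0.03 over the 7 genes and -0.04 over all genes. Among the 9 probe sets, 1 was called in each direction, where 5.95% of all probe sets were higher and 4.58% lower, 10.5% in all.

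The promoters of both genes that differed are printed to show what precedes their starts, from the RefSeq tables of GRCm38.p6. Each run holds the 250 bases before a start, 5′ to 3′ on the gene's strand. Capitals mark the letters of a GC box (GGGCGG) or a CCAAT box (CCAAT), on either strand. Tph1 has 2 starts in the tables, on the minus strand, whose windows lie at chr7:46672538-46672787 and at chr7:46667378-46667627. Slc6a4 has 1 start, on the plus strand, whose window lies at chr11:76998347-76998596.
Tph1, start 1: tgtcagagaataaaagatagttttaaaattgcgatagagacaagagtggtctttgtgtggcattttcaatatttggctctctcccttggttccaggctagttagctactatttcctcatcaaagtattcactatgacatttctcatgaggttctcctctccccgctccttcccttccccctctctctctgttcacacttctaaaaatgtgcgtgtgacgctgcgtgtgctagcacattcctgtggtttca
Tph1, start 2: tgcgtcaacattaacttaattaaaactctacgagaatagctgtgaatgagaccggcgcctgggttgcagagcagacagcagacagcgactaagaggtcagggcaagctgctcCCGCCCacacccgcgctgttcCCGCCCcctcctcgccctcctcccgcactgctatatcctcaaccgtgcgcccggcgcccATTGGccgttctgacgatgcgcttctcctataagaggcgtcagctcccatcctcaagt
Slc6a4: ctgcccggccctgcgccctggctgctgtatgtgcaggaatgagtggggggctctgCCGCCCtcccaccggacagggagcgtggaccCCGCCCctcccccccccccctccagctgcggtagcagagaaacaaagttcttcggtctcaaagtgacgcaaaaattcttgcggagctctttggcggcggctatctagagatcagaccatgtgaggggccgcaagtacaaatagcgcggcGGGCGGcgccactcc
The window before start 1 of Tph1 held neither motif and was 43.6% G and C. The window before start 2 was 58.8% G and C and held 2 GC boxes and 1 CCAAT box, all as the reverse complement. The Slc6a4 window was 64.8% G and C and held 3 GC boxes, of which the one nearest the start lay 15 bases before it. None of the 3 windows held the letters TATAAA or TGACGTCA, which stand for a TATA box and a cyclic AMP response element. The matches did not overlap each other. Of all 32851 windows of this length in the table, 32.7% held a GC box, 33.8% a CCAAT box, 12.4% the TATA letters and 1.55% the cyclic AMP element. The matches describe these letters and say nothing of which factor acts there or which start was used.

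Tph1 was at log2 levels of 5.71, 6.46 and 6.17 in carotid body arrays 1, 2 and 3, against 3.85, 3.55 and 3.50 in adrenal medulla arrays 1, 2 and 3. The groups did not overlap, which held for 43.9% of all genes. All 3 carotid body values lay above their array's median, and all 3 adrenal medulla values lay below their array's lower quartile. The difference was 2.48 ± 0.20 (SE; limma adjusted p = 0.000241), a 5.58-fold higher level with a 95% confidence interval of 4.01 to 7.75. It was 1.86, 2.91 and 2.67 within cohorts 1, 2 and 3. No detection calls came with the values, and a difference measured against the dim end of the scale is compressed, so this fold need not be the full one.

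Tph2, the neuronal isoform, was at 3.22, 3.21 and 3.23 in carotid body, against 3.19, 3.25 and 3.32 in adrenal medulla. It lay below the lower quartile on every array. Its difference was -0.03, with a 95% confidence interval of -0.27 to 0.21 (adjusted p = 0.882). With both tissues at the dim end of the scale, no level of Tph2 RNA can be read from this probe set.

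**Figure D1:**
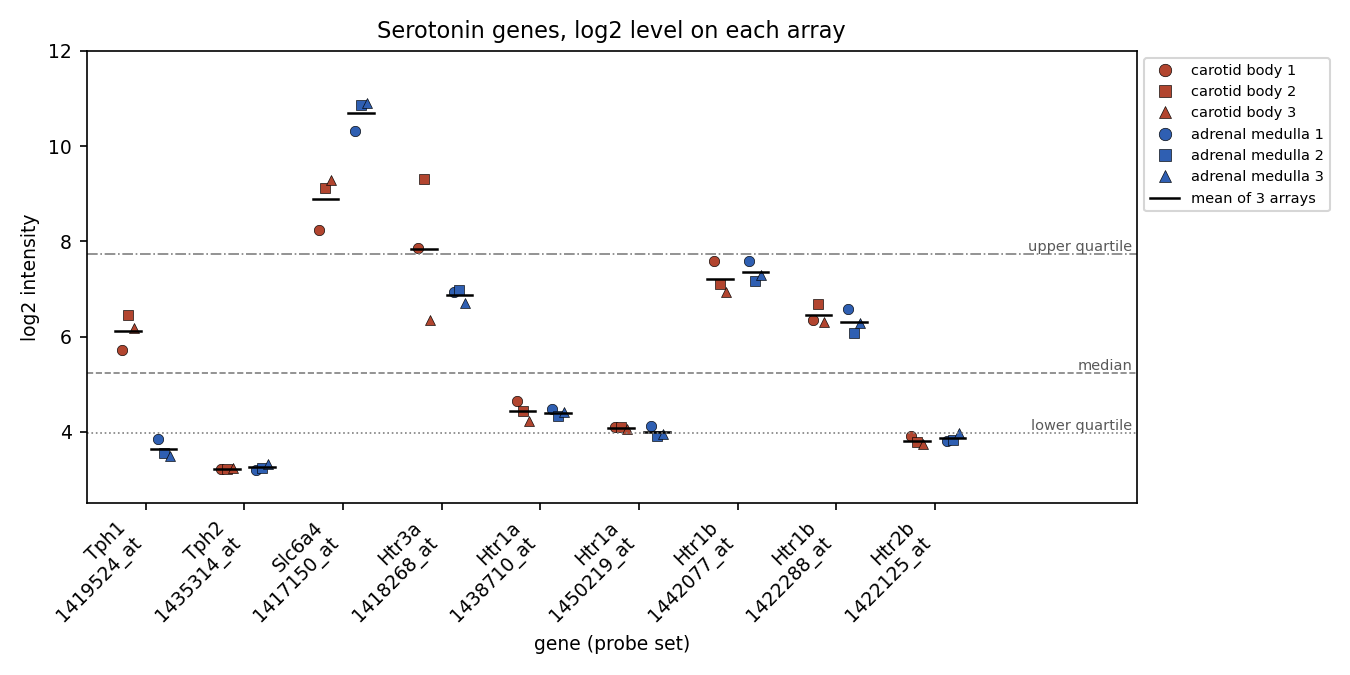
Log2 intensity of the 9 probe sets of the serotonin genes on each array, carotid body in red and adrenal medulla in blue, with the mean of 3 arrays as a bar and the mean quartiles of the arrays as lines. The Tph1 points of carotid body all lie above those of adrenal medulla, the Slc6a4 points all lie below, and the Htr3a points of carotid body spread from 6.35 to 9.32.

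Among the steps that follow and support hydroxylation, Ddc and the cofactor genes differed less than Tph1. The difference of Slc7a5, a gene of tryptophan supply, was close to that of Tph1 in size and opposite in direction. Ddc, the decarboxylase that forms serotonin and dopamine alike, was at 12.97, 13.42 and 13.58 in carotid body, against 12.25, 12.69 and 12.61 in adrenal medulla. Its difference of 0.81 was under 2-fold (adjusted p = 0.0207), and its other, dimmer probe set differed by -0.40 (adjusted p = 0.0379). Of the 6 measured genes for the cofactor tetrahydrobiopterin, which tryptophan and tyrosine hydroxylases both need, 5 were lower in carotid body at an adjusted p under 0.05, all by less than 2-fold, where 16.5% of all genes were lower by that rule. With the cohort as a block 4 were, since Pcbd2 then missed the threshold (adjusted p = 0.0529). Gch1, the first enzyme of cofactor synthesis, differed by -0.89 and Qdpr, which regenerates the cofactor, by -0.78. Second probe sets of both genes passed 2-fold, at -1.20 for Gch1 and -1.37 for Qdpr. Pts, the sixth, differed by -0.10 (adjusted p = 0.652). Slc7a5, the light chain of a transporter that brings tryptophan and other large neutral amino acids into cells, was lower in carotid body, by -2.31 ± 0.17 (SE; adjusted p = 0.000131). Its levels were 6.88, 7.05 and 6.74 in carotid body, against 9.43, 9.27 and 8.90 in adrenal medulla. A related light chain, Slc7a8, differed by -1.08 (adjusted p = 0.0197), and its call was lost without any 1 of carotid body arrays 2 and 3, adrenal medulla arrays 2 and 3, or cohorts 2 and 3 (adjusted p of at most 0.196). Their shared heavy chain Slc3a2 differed by -0.85, under 2-fold.

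Slc6a4, the serotonin transporter, was at 8.25, 9.12 and 9.30 in carotid body, against 10.32, 10.87 and 10.91 in adrenal medulla. The groups did not overlap, and all 6 values lay above their array's upper quartile, so the transporter was bright in both organs. The difference was -1.81 ± 0.29 (SE; limma adjusted p = 0.00416), a 3.51-fold lower level in carotid body with a 95% confidence interval of 2.19 to 5.63. It was -2.08, -1.75 and -1.62 within cohorts 1, 2 and 3. Carotid body array 1 was the lowest, and without it the difference was -1.49. Without both arrays of cohort 2, the adjusted p was 0.0695 at a difference of -1.85, in a fit of 2 arrays against 2.

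Other genes that store or remove monoamines were also lower in carotid body. Of 7 measured genes of storage and removal, 4 were called lower and none higher by limma, with a median difference of -1.19, where 6.08% of all genes were called lower. At an unadjusted p under 0.05, 6 were lower and 1, Slc22a2, was higher, where 24.2% and 14.9% of all genes were. Slc18a1, a vesicular monoamine transporter, differed by -2.42 (adjusted p = 0.000287), and its 2 dimmer probe sets differed by -0.13 and 0.01. Slc18a2, the second vesicular transporter, differed by -0.67 and was not called (adjusted p = 0.109). Slc29a4, a low-affinity transporter that takes up serotonin and dopamine, was at 8.99, 9.49 and 9.36 in carotid body, against 10.36, 11.00 and 11.02 in adrenal medulla. It differed by -1.52 ± 0.22 (SE; adjusted p = 0.00254), and its second probe set by -2.22 (adjusted p = 0.0031). Maoa, the monoamine oxidase that prefers serotonin and noradrenaline, differed by -1.19 (adjusted p = 0.00295), and by -0.997 without carotid body array 3, just under 2-fold. The dimmer Maoa probe set was also called lower, at -1.65 (limma adjusted p = 0.0318). Maob, the second oxidase, was at 8.52, 8.07 and 7.77 in carotid body, against 9.86, 10.55 and 9.96 in adrenal medulla, a difference of -2.004 ± 0.24 (SE; adjusted p = 0.00127). All of these handle catecholamines as well as serotonin. In the same arrays the catecholamine cell markers Th, Dbh, Chga, Chgb and Scg2 were lower in carotid body, 5 of 7 measured. Dbh differed by -3.41, Chga by -2.08 and Scg2 by -1.83. The others, Ddc and Syp, were not lower, at 0.81 (limma adjusted p = 0.0207) and 0.17 (adjusted p = 0.836), and were not called. The summed intensity of the 7 was 36182 to 42139 in carotid body, against 89562 to 110189 in adrenal medulla. The part of that shift in the values of Slc6a4 and the storage and removal genes was not tested. In tissue RNA, fewer cells of a type and less RNA per cell cannot be told apart.

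**Figure D2:**
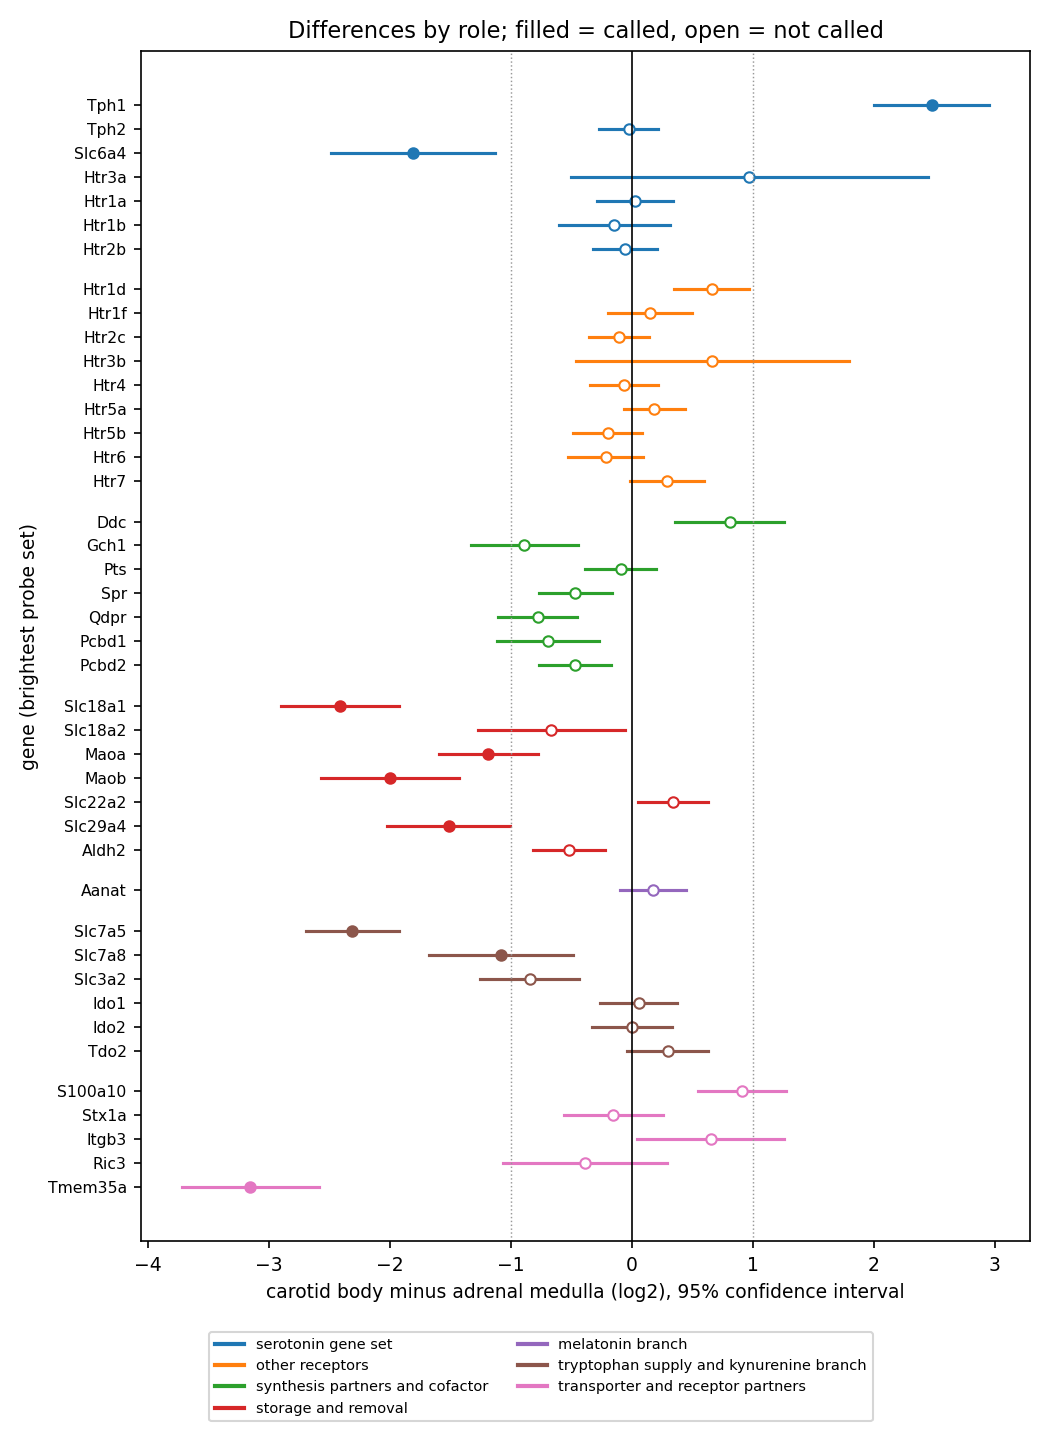
Difference between carotid body and adrenal medulla (log2) with its 95% confidence interval for the brightest probe set of each serotonin gene and each related gene, grouped by role, where filled points were called and open points were not. Tph1 at 2.48 is the only filled point right of 0, Slc6a4 at -1.81 lies left of it with Slc18a1, Maoa, Maob and Slc29a4, and the intervals of all receptors but Htr1d, at 0.66, span 0, with the widest for Htr3a and Htr3b.

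Htr3a, the subunit that can form the 5-HT3 channel alone, was at 7.85, 9.32 and 6.35 in carotid body, against 6.93, 6.98 and 6.70 in adrenal medulla. Carotid body arrays 1 and 2 lay above all adrenal medulla arrays and array 3 lay below all of them, so the groups overlapped. The standard deviation over the carotid body arrays was 1.48, larger than that of 99.7% of probe sets, against 0.15 over the adrenal medulla arrays. The difference was 0.97 ± 0.63 (SE; adjusted p = 0.332), with a 95% confidence interval of -0.50 to 2.45. Without carotid body array 3 it was 1.71 and was called (adjusted p = 0.0162). Without carotid body array 2 it was 0.23 and was not called (adjusted p = 0.769). The size of the Htr3a difference therefore rests on those 2 arrays.

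Htr3b, the partner subunit of the same channel, had the same order over the carotid body arrays. It was at 4.60, 6.08 and 3.89 in carotid body, against 4.21, 4.05 and 4.31 in adrenal medulla, with array 2 the highest and array 3 the lowest of all. Htr3b was dim, with means below the median of all probe sets in both tissues. Only carotid body array 2 lay above its array's median, and carotid body array 3 lay below its lower quartile. Its difference was 0.66 (adjusted p = 0.388). The profiles of Htr3a and Htr3b over the 6 arrays, each set to a mean of 0, differed by a root mean square of 0.34. Among 9097 genes with a mean at or above the median of all genes, the profiles most like that of Htr3a were those of Ngfr, Prph and Ccser2, at 0.50, 0.51 and 0.54, followed by Slc6a2 at 0.54 and Nefl at 0.59. This search was added after the values were seen. Ngfr is the low-affinity neurotrophin receptor, Prph is an intermediate filament of peripheral neurons, Slc6a2 is the noradrenaline transporter and Nefl is a neurofilament. Prph was at 8.80, 9.69 and 7.55 in carotid body, against 6.57, 7.86 and 7.29 in adrenal medulla. That is its brightest probe set. Dimmer Prph probe sets had array 3 highest in carotid body, at 6.02, 5.94 and 6.50 and at 5.99, 5.61 and 7.14. The dimmest had array 3 lowest, at 4.29, 4.39 and 4.18. The brightest Nefl probe set differed by 0.40 between the tissues and the other by -1.22, neither called. Slc6a2 was at 10.54, 11.60 and 8.85 in carotid body, against 10.10, 10.07 and 10.64 in adrenal medulla. Among the 7 measured glomus and chromaffin markers, Dbh, which makes noradrenaline, and Chgb were lowest in array 3 of the carotid body arrays, with Dbh at 10.20, 10.23 and 7.86. The other markers did not share that order: Chga, Scg2, Syp and Ddc were highest in array 3, and Th was lowest in array 1. Of all genes, 5.91% were called higher and 6.08% lower in carotid body. Of the 11 neuron markers, 2 were called higher in carotid body, Gap43 at 5.27 and Avil at 1.27, and 1 was called lower, Rbfox3 at -2.85. Their summed intensity was 3943, 6710 and 4704 in carotid body arrays 1, 2 and 3, and 2622 to 5042 in adrenal medulla. Most of each carotid body sum was Gap43 and Uchl1, with means of 10.99 and 10.47. Most of each adrenal medulla sum was Uchl1, with a mean of 11.10. The sums therefore do not compare the other neuron markers between the arrays. Among the neuron markers, P2rx3, Slc17a6 and Scn10a had means below the median of all probe sets in both tissues. Avil was at 6.23, 6.37 and 4.90 in carotid body, against 4.51, 4.39 and 4.78 in adrenal medulla. By brightest probe set, Avil and Nefm had carotid body array 2 highest and array 3 lowest, as Prph did. Nefl, Nefh, Gap43 and Uchl1 were lowest in array 1 and Rbfox3 in array 2. The part of neuronal RNA in the Htr3a values was not tested.

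**Figure D3:**
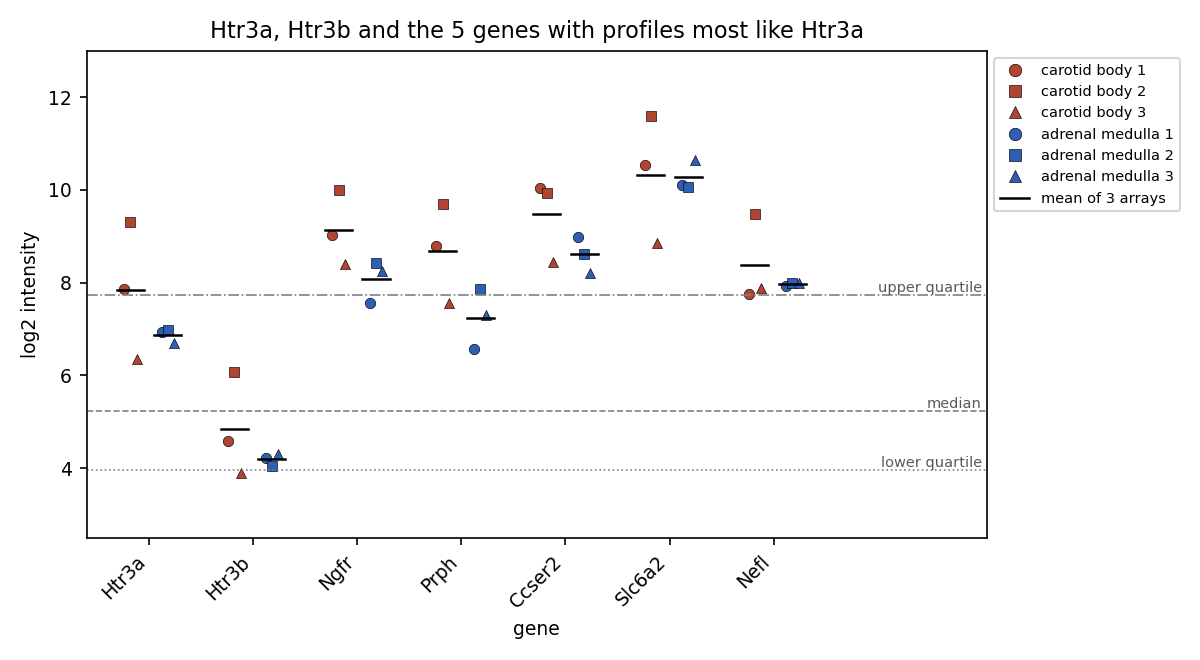
Log2 intensity on each array of Htr3a, Htr3b and the 5 genes with profiles most like Htr3a, carotid body in red and adrenal medulla in blue, with the mean of 3 arrays as a bar. Carotid body array 2 is at the top and array 3 at the bottom of the carotid body points for Htr3a, Htr3b, Ngfr, Prph and Slc6a2, while the adrenal medulla points of Htr3a lie within 6.70 to 6.98.

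The G protein-coupled receptors of the set differed little. Htr1b, an inhibitory receptor of nerve endings and vessels, lay above the array median on every array with both of its probe sets. Its brighter probe set was at 7.58, 7.11 and 6.93 in carotid body, against 7.60, 7.16 and 7.30 in adrenal medulla. The difference was -0.15, with a 95% confidence interval of -0.60 to 0.31 (adjusted p = 0.661), and the other probe set gave 0.13, with an interval of -0.26 to 0.52. Both intervals lie inside 2-fold in either direction. Htr1a, an inhibitory receptor that in mouse chromaffin cells restrains secretion, was at 4.64, 4.43 and 4.22 in carotid body, against 4.47, 4.33 and 4.41 in adrenal medulla. It lay below the median on every array, and its difference of 0.02 had an interval of -0.29 to 0.34 (adjusted p = 0.925). The second Htr1a probe set gave 0.09 (adjusted p = 0.632). Htr2b, a receptor of vessel and valve cells that signals through phospholipase C, was at 3.91, 3.79 and 3.75 in carotid body, against 3.80, 3.83 and 3.98 in adrenal medulla. Its difference was -0.06, with an interval of -0.32 to 0.21 (adjusted p = 0.785), close to the lower quartile of the arrays. For Htr1a and Htr2b an absent transcript and a low one cannot be told apart here.

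None of the 9 receptor genes outside the set was called by limma, and 1 of them, Htr1d, was higher in carotid body at an unadjusted p under 0.05, where 14.9% of all genes were. Htr1d, an inhibitory receptor of sensory and sympathetic nerve endings, was at 5.94, 6.06 and 5.86 in carotid body, against 5.15, 5.50 and 5.23 in adrenal medulla. Its difference of 0.66 ± 0.13 (SE; adjusted p = 0.0104) was under 2-fold. A second Htr1d probe set differed by 0.82 (adjusted p = 0.00594) and the dimmest by 0.18 (adjusted p = 0.413). Apart from Htr1d and Htr3b, the differences ran from -0.22 for Htr6 to 0.29 for Htr7, and Htr7, Htr1f, Htr2c, Htr4, Htr5a, Htr5b and Htr6 had means below the median in both tissues. Among 5 measured partners of the transporter and receptors, S100a10, which carries serotonin receptors to the cell surface, differed by 0.91 (adjusted p = 0.00569). That is under 2-fold, and it was 1.03 without carotid body array 3 and 1.10 without cohort 3, when it was called. The receptor chaperone Ric3 differed by -0.39 (adjusted p = 0.404). Its dimmer probe sets differed by -0.76 (limma adjusted p = 0.0411) and -0.61 (adjusted p = 0.0142), both under 2-fold. The partner called by its brightest probe set was Tmem35a, at -3.16 (adjusted p = 0.000185), a chaperone known for nicotinic acetylcholine receptors. Aanat, of the melatonin branch that starts from serotonin, differed by 0.17 (adjusted p = 0.355). Of all 35 measured related genes, 7 were lower and 0 higher in carotid body by limma at 2-fold. By that rule 6.08% of all genes were lower and 5.91% higher. At an unadjusted p under 0.05, 15 related genes were lower and 5 higher, where 24.2% and 14.9% of all genes were. At an adjusted p under 0.05 without the 2-fold minimum, 14 were lower and 3 higher, where 16.5% and 10.9% of all genes were.

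Several mast cell markers were higher in carotid body, as Tph1 was. Of 13 markers, 6 were called higher, 1 was called lower and 6 were not called, where 12% of all genes were called. Cpa3, a protease of mast cell granules, was at 9.48, 9.65 and 9.94 in carotid body, against 4.69, 4.20 and 3.80 in adrenal medulla, a difference of 5.46 ± 0.23 (SE; adjusted p = 1.73e-05). Cma1 and Mcpt4, mast cell chymases, differed by 4.81 and 3.37. Fcer1a, of the high-affinity receptor for immunoglobulin E, differed by 2.25, and Kit, the receptor for stem cell factor, by 1.42. The tryptase Tpsb2 differed by 1.09. Second probe sets of Kit and Tpsb2 differed by 0.07 (limma adjusted p = 0.709) and 0.32 (adjusted p = 0.217), neither called. Gata2, a transcription factor that sympathoadrenal cells also express, went the other way at -1.54, and Hdc, which makes histamine, differed by -0.26 (adjusted p = 0.232). Mcpt1, Mcpt2, Tpsab1, Ms4a2 and Mrgprb1 had means below the median in both tissues. Of these, Ms4a2 differed by 0.95 (limma adjusted p = 0.00362) and Mrgprb1 by 0.97 (adjusted p = 0.0057), both under 2-fold. The second Ms4a2 probe set differed by 0.13 (adjusted p = 0.631). At an adjusted p under 0.05 without the 2-fold minimum, 8 of the 13 were higher and 1 lower, where 10.9% and 16.5% of all genes were. The summed intensity of the 13 was 2506 to 2625 in carotid body, against 1736 to 2430 in adrenal medulla. Most of the adrenal medulla sum was Gata2, at 10.56, 11.02 and 11.11 there, against 9.61, 9.50 and 8.95 in carotid body. The next brightest of the 13 in adrenal medulla was Hdc, with a mean of 5.24. The sums therefore do not compare the other mast cell markers between the organs. Within carotid body the order of the arrays differed between genes, with array 2 highest for Tph1, array 3 for Cpa3 and array 1 for Cma1. The part of mast cell RNA in the Tph1 difference was not tested.

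**Figure D4:**
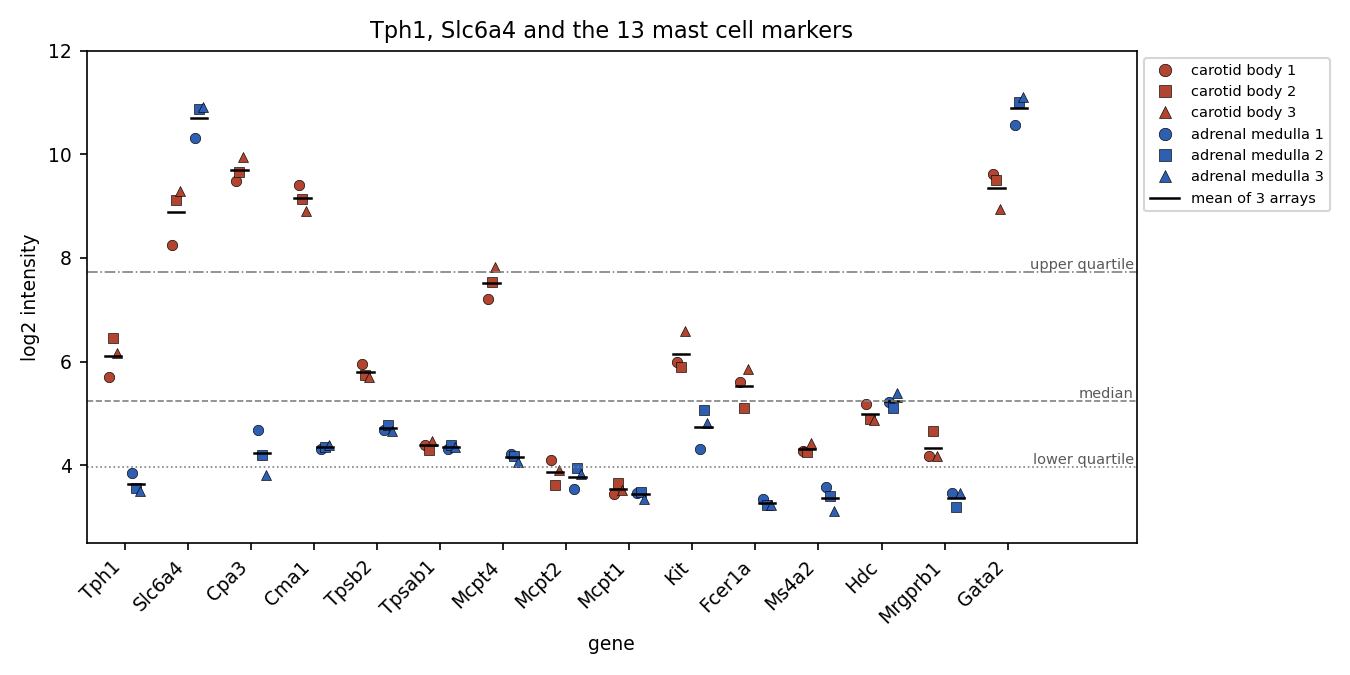
Log2 intensity on each array of Tph1, Slc6a4 and the 13 mast cell markers, carotid body in red and adrenal medulla in blue, with the mean of 3 arrays as a bar and the mean quartiles of the arrays as lines. Tph1, Cpa3, Cma1, Mcpt4 and Fcer1a are higher in every carotid body array than in any adrenal medulla array, while Slc6a4 and Gata2 are lower.

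Of 8 measured platelet markers, 1 was called higher, where 5.91% of all genes were called higher in carotid body and 12% were called in all. It was Pf4, which macrophages can also express, at 2.44 (limma adjusted p = 8.34e-05). The platelet receptor genes Itga2b, Gp9 and Gp6 differed by 0.31, 0.33 and 0.23 and were not called. For Gp1bb, another platelet receptor gene, the brightest probe set differed by 0.09 and was not called, and the second was called higher, at 1.18 (adjusted p = 0.00634). Markers of fibroblasts, of smooth muscle and pericytes and of glia were higher in carotid body, at 7 of 7, 7 of 8 and 5 of 6 measured, with Mfap5 at 5.47, Myh11 at 3.85 and Mbp at 3.39. For endothelium 3 of 7 were higher, with Cldn5 at 3.97, and for macrophages 2 of 4, with Mrc1 at 1.66. By the likeness rule, among the 9097 genes with a mean at or above the median of all genes, the 3 whose profiles over the 6 arrays came nearest to Tph1 were Cd34, Adam23 and Matn4, at root mean square differences of 0.10, 0.10 and 0.13. Those nearest to Slc6a4 were Suox, Pla2g12a and Apool, at 0.13, 0.14 and 0.16.

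Other facts of the arrays touch these results. The X-linked RNA Xist lay between 8.84 and 10.96 in carotid body and between 4.45 and 5.60 in adrenal medulla, so a difference in sex between the pools and the difference in tissue cannot be told apart. The steroid cortex gene Star was at 12.06 in carotid body array 1, at 3.85 and 3.81 in arrays 2 and 3, and at 13.52 to 13.95 in adrenal medulla. Of 8 cortex markers, 7 were called lower in carotid body, where 6.08% of all genes were. The summed intensity of the 8 was 20691, 282 and 213 in carotid body arrays 1, 2 and 3, and 52829 to 69301 in adrenal medulla. Without carotid body array 1 the differences of Tph1 and Slc6a4 were 2.68 and -1.49, and both stayed called. That fit kept every adrenal medulla array with its cortex RNA. The part of cortex RNA in the differences of Slc6a4 and the storage and removal genes was not tested. The log2 difference between the 3′ and 5′ control probe sets of Gapdh, which grows with RNA degradation, lay between 0.59 and 1.45 in carotid body and between 0.13 and 0.61 in adrenal medulla, and its part in these results was not tested.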

How the data were processed

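The values are log2 intensities of probe sets that the authors deposited, 1 per array. Per the submitters' processing notes, they come from Affymetrix Expression Console. Its version and its algorithm were not given in the sources used here. The log2 scale was read from the values, which lie between 2.70 and 14.97. Per the labels' protocols, tissue was collected over 2 days into RNAlater and labelled with an in vitro transcription kit. Of 45101 probe sets, 64 controls were left out and 45037 tested. By the 2016 platform annotation, 34945 of these carry 1 symbol, 932 carry several and 9160 carry none. A RefSeq table of GRCm38.p6 held 34741 of the gene IDs and changed 0 symbols. The fit was limma 3.58.1 in R 4.3.3 (lmFit, eBayes, 2 groups, no block), two-sided, and it was tested on simulated data. Precision is limited by the number of arrays.

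The gene set, the lists and the tests were chosen with earlier results of these data known. Named genes were the serotonin set, fixed related genes and all receptors, called related genes, up to 3 called markers per cell type list, and the 3 nearest profiles of each called member. Others were named after their values were seen. The related list names Tmem35a under both of its names. Some listed genes are not reported here. The study states that equal numbers mark 1 cohort. Deviations of same-numbered arrays from their tissue means correlated at 0.22, 0.08 and 0.16, those of other pairs at -0.21 to 0.10. Alternatives were the cohort as a block, quantile normalization, median centring, no dim probe sets, a variance trend, array weights, other probe sets per gene, no minimum difference, and leaving out arrays or cohorts.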

Additional observations from a re-analysis of the deposited data

How the results depend on the processing

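With the cohort as a replicate block, Tph1 and Slc6a4 differed by 2.48 and -1.81 as without it, and the block changed no 2-fold call among the serotonin and related genes. With the block and no minimum difference, 14 related genes were lower and 4 higher. Slc18a2 and Itgb3 then passed and Pcbd2 did not. Tph1 stayed called in every alternative in which it was tested, at 2.27 to 2.79. It was not tested when the dimmer probe sets were left out, so the members called higher then numbered 0. Slc6a4 stayed called at -2.02 to -1.49, except without cohort 2. Related genes called higher numbered 1 with the probe set of largest spread. With no minimum difference, 3 related genes were higher and 14 lower, and 5168 and 5576 of all probe sets. Leaving out single arrays or cohorts gave 1 to 2 members higher, 0 to 1 lower, 0 to 1 related genes higher, 1626 to 3025 probe sets higher and 952 to 2499 lower. The lower end of each probe set count came without cohort 2 (1626 and 952). The second member called higher was Htr3a, without carotid body array 3. Slc18a1 lost its call as the mean of all its probe sets (-0.84), and Slc7a8 after quantile normalization (-0.96). Gch1, Qdpr and S100a10 were called in some alternatives. Levels at the dim end limit what can be read for Tph2, Htr1a and Htr2b.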
